A study of Mus musculus with 19 samples.

Results

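The genes described here bring fatty acids into muscle, store them as triglyceride and release them again, and oxidise them in mitochondria. They were 34 genes listed by name for these functions. Of these, 32 had a probe set (the group of short probes that reports 1 transcript on an Affymetrix array) with a single gene symbol, out of 12393 genes that had one. After a filter on dim genes 31 remained among the 7436 genes tested. Acsl1, which activates long-chain fatty acids, and Cpt1b, the muscle enzyme that loads them onto carnitine, had no such probe set and are not analysed here. Acot2, a mitochondrial thioesterase that releases free fatty acid from its CoA ester, fell below the filter and is given by its values and by a fit without the filter. Where a gene had several probe sets, the one with the highest mean over the 19 arrays stood for it.

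RNA came from the tibialis anterior, a fast muscle of the lower leg, of mice on the 129/SVE background. They were wild type or carried Des(-/-), a loss of desmin, the intermediate filament protein that ties neighbouring myofibrils together in every muscle cell. The 4 groups were WT_Adult (wild type, 7 to 9 weeks old, 5 arrays), WT_Aged (wild type, 12 to 14 months, 5 arrays), KO_Adult (Des(-/-), 7 to 9 weeks, 5 arrays) and KO_Aged (Des(-/-), 12 to 14 months, 4 arrays). Every muscle, of both genotypes and ages, had made 50 eccentric contractions, in which the active muscle is stretched, 12 hours before RNA was taken, so every difference lies between exercised muscles. Since desmin was lost in the whole animal, other muscles and vessels lacked it too. Whether replicate arrays stand for separate mice is not stated in the labels, and every p-value therefore reflects array-to-array spread that may be technical in part. The number of arrays limits the precision. In whole muscle, fewer cells of a type and less RNA per cell cannot be told apart. Deposited intensities of Des were 13699.6 to 22313 for adult and 10749 to 12736 for aged wild type, against 311 to 879 for adult and 72.7 to 636 for aged knockout.

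Array controls split the arrays along lines that cross the study's groups, and this touches every result here. A poly-A spike-in control (the dap transcript of Bacillus subtilis, usually added to RNA before labelling) read 1184 to 3103 on 8 arrays and 1 to 17.4 on the other 11. All 5 WT_Aged arrays and KO_Adult replicates 3, 4 and 5 had the signal, while KO_Adult replicates 1 and 2 and all WT_Adult and KO_Aged arrays did not. Age in wild type and genotype in aged mice were therefore each compared wholly across this split. There the groups and the spike-in status cannot be told apart without the divided KO_Adult group. Adult genotype, age in knockout and the genotype by age interaction include that divided group, and lie across the split in part. Separately, the Gapdh 3' to 5' probe ratio, which rises when RNA or cDNA is shortened, was 8.61 in KO_Aged replicate 2 and 5.01 in KO_Aged replicate 3, against 0.766 to 0.968 elsewhere. The sample titles end in codes whose meaning is not stated. The codes of KO_Adult replicates 1 and 2 begin alike, and so do those of replicates 3, 4 and 5, which begin otherwise, so the codes follow the spike-in split there. By their first 2 characters, the codes of KO_Adult replicates 1 and 2 matched those of WT_Adult replicates 2 to 5, all without signal. The codes of KO_Adult replicates 3 to 5 matched those of WT_Aged replicates 1 to 3, all with signal. WT_Aged replicates 4 and 5, with signal, matched KO_Aged replicates 3 and 4, without it. Within KO_Adult the codes and the signal cannot be told apart. Of 14 code stems (the first 4 characters) 1 was shared between groups, by WT_Aged replicates 4 and 5, with signal, and KO_Aged replicate 4, without it.

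Fatty acids reach a muscle fibre from lipoproteins, cleaved by lipoprotein lipase at the vessel wall, or from the fibre's own lipid droplets. They are activated to acyl-CoA, carried into mitochondria by the carnitine shuttle, and shortened by repeated rounds of dehydrogenation, hydration, a further dehydrogenation and thiolysis. Acyl-CoA dehydrogenases pass their electrons through electron transfer flavoprotein to the respiratory chain, and for long chains the last steps are made by the trifunctional protein, built from the Hadha and Hadhb products. Slow and oxidative fibres make more of this machinery than fast glycolytic ones, and many of its genes answer to the nuclear receptors PPAR and ERR with their coactivator PGC-1.

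Hadha and Hadhb, whose values carry much of what follows, lie head to head on mouse chromosome 5, so that 1 stretch between their starts serves as upstream sequence for both. In RefSeq's annotation of GRCm38.p6, Hadha spans 30119423 to 30154980 on the minus strand and Hadhb 30155253 to 30184593 on the plus strand. The 272 bases between the starts, at chr5:30154981-30155252, are shown on the plus strand because the genes' values moved together. The Acadm sequence gives the 250 bases before the start of this medium-chain dehydrogenase gene, at chr3:153944644-153944893 on the minus strand; it was chosen for display after its motif and values were seen. Capitals mark AAGGTCA, a motif bound by ERR, found there on the opposite strand and ending 243 bases before the start.
Hadha and Hadhb, between the starts: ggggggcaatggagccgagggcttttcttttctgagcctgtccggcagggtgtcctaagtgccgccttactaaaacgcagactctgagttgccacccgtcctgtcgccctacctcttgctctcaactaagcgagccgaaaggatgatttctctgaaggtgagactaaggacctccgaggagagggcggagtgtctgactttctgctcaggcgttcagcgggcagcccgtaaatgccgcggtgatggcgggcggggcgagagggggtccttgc
Acadm, before the start: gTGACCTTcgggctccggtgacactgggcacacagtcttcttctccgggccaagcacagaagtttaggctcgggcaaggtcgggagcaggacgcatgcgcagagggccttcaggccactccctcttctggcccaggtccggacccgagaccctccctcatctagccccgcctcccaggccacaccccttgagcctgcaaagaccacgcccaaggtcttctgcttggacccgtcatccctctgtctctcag
Of the 34 genes, 27 had an entry in the RefSeq promoter table, which holds 250 bases before and 50 after a start. A PPAR type direct repeat, AGGTCA followed by 1 base of any kind and AGGTCA again, on either strand, was in 0 of the 27 and in 13 of 27025 genes of the table (0.0481%). The letters AAGGTCA, on either strand and allowed to overlap the repeat, were in 1 of the 27 (3.70%), Acadm, and in 1454 genes of the table (5.38%). The stretch between Hadha and Hadhb held neither.

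Between aged and adult wild-type muscle 19 of the 31 genes fell and 0 rose at a Benjamini-Hochberg adjusted p under 0.05 (limma), while 20.8% of all genes tested fell and 18.1% rose. Their median log2 difference, on the scale log2(intensity + 4.76) used throughout, was -0.69, beside -0.03 over all genes. Between adult knockout and adult wild type 9 of the 31 fell and 0 rose, against 9.37% and 7.32% of all genes, with a median of -0.33 beside 0.04. Between aged knockout and aged wild type the sign was the other way, with 10 of 31 higher and 0 lower, against 16.9% and 12.5% of all genes, and a median of 0.32 beside 0.07. Aged and adult knockout differed for 0 of 31 by limma (5 at an unadjusted p under 0.05), against 3.68% higher and 3.75% lower of all genes, with a median of 0.04 beside 0.03. The interaction (the aged knockout to wild-type difference minus the adult one) was above 0 for 12 of 31 and below 0 for 0, against 14.3% and 10.8% of all genes, with a median of 0.52 beside 0.03. These comparisons share groups of arrays and are not independent of each other. Without the 3'-biased arrays the counts were 19, 11, 7, 0 and 10 in the same order. The shares of all genes called in either direction were then 40.2%, 17.7%, 14.2%, 1.57% and 14.6%. With median centring in place of quantile normalization the counts were 13, 2, 6, 0 and 4. The shares of all genes were then 35.5%, 17.3%, 24.7%, 6.28% and 23%. Only for age in wild type were the members then called more often than genes at large. The members' medians with median centring were -0.50, 0.0042, 0.15, -0.19 and 0.11. Those over all genes were 0.08, 0.20, 0.05, -0.04 and -0.14, so the lower level in adult knockout held only relative to other genes. The adult knockout count was 4 without KO_Adult replicate 3 or 4 and 5 without WT_Adult replicate 3 or 5, and the count for age in knockout rose to 1 or 2 without KO_Adult replicate 1, 2 or 4 or KO_Aged replicate 1. Of the 32 measured genes 16 had more than 1 probe set, and in 0 of them were probe sets called in opposite directions. With probe sets averaged, however, only 5 of the 10 calls for aged knockout were kept, and 11 of the 12 for the interaction.

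**Figure D1:**
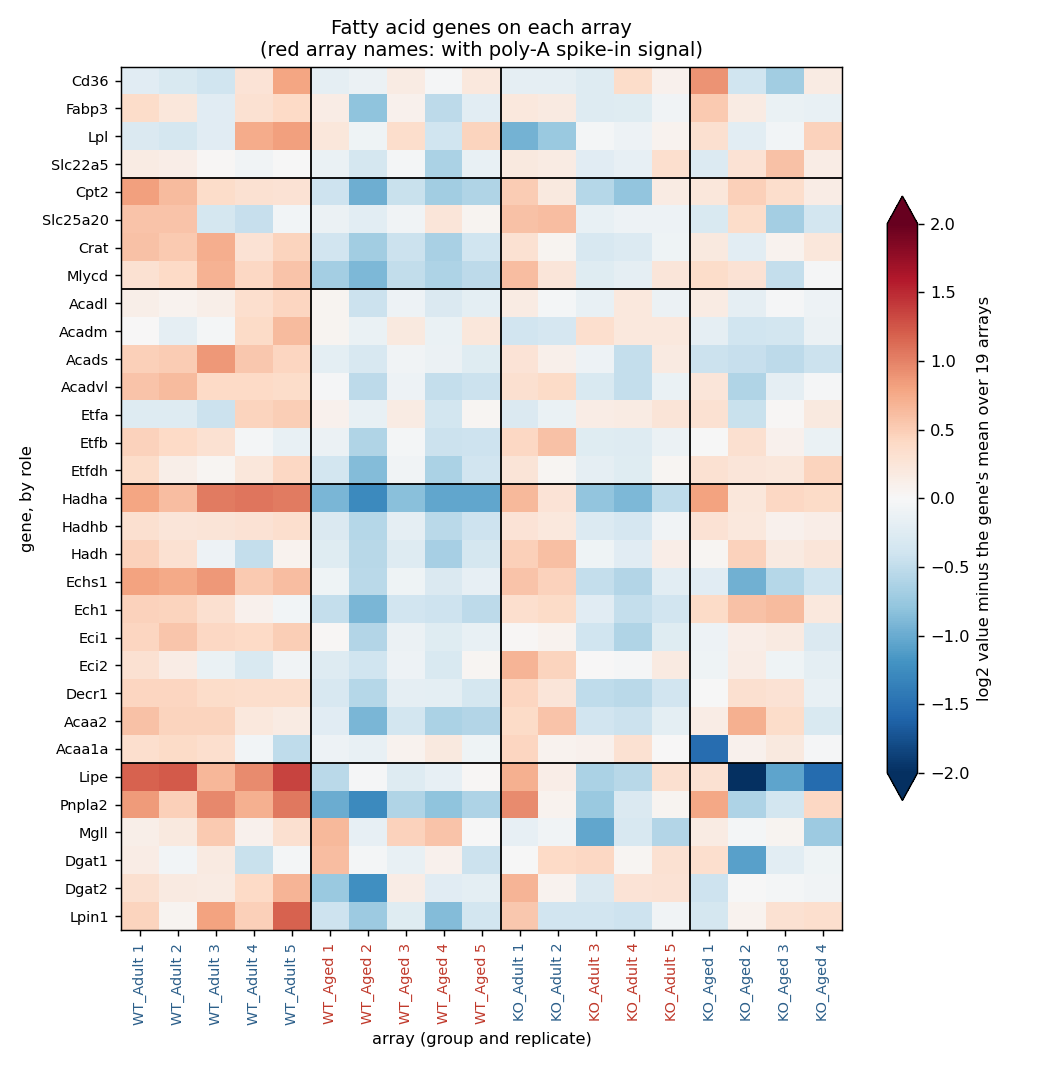
Each row is 1 of the 31 tested genes, grouped by role, and each column 1 of the 19 arrays; colour gives the log2 value minus the gene's mean over all arrays, from blue (lower) to red (higher), with array names in red where the poly-A spike-in gave signal. The WT_Adult columns are mostly red and the WT_Aged columns mostly blue, and KO_Adult replicates 3 and 4 are bluer than replicates 1 and 2.

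None of the 4 tested uptake genes passed in any of the 4 pairwise comparisons between groups (limma), although Slc22a5 in aged knockout and Fabp3 with age in wild type had an unadjusted p under 0.05. Fabp3, the heart-type fatty acid binding protein of the cytosol, read 10886, 10420.4, 7140.2, 10128 and 10391 in WT_Adult, 8718, 4859, 8976, 5839 and 7386 in WT_Aged, 10304, 10975, 7172, 7237 and 8130.4 in KO_Adult and 10668, 9905, 7443 and 6828 in KO_Aged, in replicate order. Its ranges overlapped between all groups, and the difference with age in wild type was -0.47 ± 0.20 (SE, adjusted p = 0.0633). Slc22a5, which brings carnitine into the cell, read 395, 370.0, 361, 362 and 390.2 in WT_Adult, 323, 263, 334, 226 and 298 in WT_Aged, 381, 361, 287, 291 and 446 in KO_Adult and 323, 403, 528 and 424 in KO_Aged. All WT_Aged values lay below all WT_Adult values, but the log2 difference of -0.30 ± 0.16 (SE, adjusted p = 0.148) missed the threshold, as did 0.45 ± 0.17 (SE, adjusted p = 0.0598) between aged knockout and aged wild type. With its probe sets averaged, Slc22a5 fell with age in wild type (-1.50, adjusted p = 0.00151). Lpl, lipoprotein lipase, had a wide spread within WT_Adult, at 5824, 5908, 6129, 11793 and 12502, and read 8087, 6799, 9182, 5472 and 9324 in WT_Aged, 3883, 4531, 7117, 6911 and 7709 in KO_Adult and 8141, 6482, 6719.8 and 9108 in KO_Aged. KO_Adult replicates 1 and 2, the 2 without spike-in signal, were the lowest of all arrays, and the largest group difference, adult knockout against wild type, was -0.49 ± 0.27 (SE, adjusted p = 0.218); with its probe sets averaged it passed (-0.76, adjusted p = 0.0387). Cd36, the fatty acid translocase of the cell surface, had near-equal group means of 4185 ± 1419.8, 4109.9 ± 516 and 4074 ± 759.5 (SD, n = 5 each) and 4205 ± 1909 (SD, n = 4), in the order WT_Adult, WT_Aged, KO_Adult, KO_Aged.

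Of the 4 tested genes of the carnitine shuttle and CoA handling, 3 fell with age in wild type and 3 were higher in aged knockout than in aged wild type, in both cases Crat, Mlycd and Cpt2. The shares of all genes were 20.8% and 16.9%. Crat, carnitine acetyltransferase, which buffers acetyl-CoA as acetylcarnitine, read 4313, 4291, 4731, 3367 and 3605 in WT_Adult and 2218, 1778, 2139, 1875 and 2189 in WT_Aged. It read 3717, 3094, 2362, 2416 and 2755 in KO_Adult and 3162, 2626, 3052 and 3208 in KO_Aged. The WT_Aged arrays lay below every other array, and the log2 differences were -1.02 ± 0.14 (SE, adjusted p = 8.63e-05) with age in wild type, -0.57 ± 0.14 (SE, adjusted p = 0.0103) for adult knockout and 0.58 ± 0.15 (SE, adjusted p = 0.00769) for aged knockout. Mlycd, malonyl-CoA decarboxylase, removes the malonyl-CoA that blocks entry into the shuttle; it read 1287, 1364, 1704, 1389 and 1504 in WT_Adult and 673, 562, 751, 697 and 730.1 in WT_Aged. It read 1615, 1205, 912, 928 and 1274 in KO_Adult and 1413, 1319.9, 774 and 1081 in KO_Aged. WT_Aged again held the lowest 5 values, with log2 differences of -1.12 ± 0.18 (SE, adjusted p = 0.000255) with age in wild type and 0.68 ± 0.19 (SE, adjusted p = 0.0121) for aged knockout, while adult knockout gave -0.34 ± 0.18 (SE, adjusted p = 0.204). Cpt2, which hands the fatty acid back to CoA inside the mitochondrion, read 2637, 2334, 1948, 1797 and 1748 in WT_Adult and 1156, 760.5, 1089.8, 940.1 and 989 in WT_Aged. In KO_Adult it read 2168, 1672, 1031, 855 and 1702 and in KO_Aged 1780.1, 2165, 1967 and 1684. It fell by 1.12 on the log2 scale with age in wild type (SE 0.21, adjusted p = 0.000853) and was higher by 0.93 ± 0.22 (SE, adjusted p = 0.00484) in aged knockout. Without the 3'-biased arrays the aged knockout difference of Cpt2 was 0.81 and no longer passed (adjusted p = 0.0708). Slc25a20, the carnitine carrier of the inner membrane, passed in no comparison between groups, its log2 differences lying between -0.42 and 0.12. Acot2, dimmer than the filter allows, read 67.5, 44.9, 54.7, 40.1 and 93.8 in WT_Adult, 112, 113, 173, 127 and 159 in WT_Aged, 48.9, 64.1, 113, 161 and 130.2 in KO_Adult and 36.8, 47.5, 6.91 and 26.3 in KO_Aged. It was the only gene of the 32 whose 8 arrays with spike-in signal all lay above the 11 without it. That order held for 1.69% of the 7436 genes tested, which do not include Acot2. Fitted without the filter, over all 12393 genes, Acot2 rose with age in wild type, by 1.34 ± 0.40 (SE, adjusted p = 0.0227). In aged knockout it was lower than in aged wild type, at -2.38 ± 0.42 (SE, adjusted p = 0.000979), and lower than in adult knockout, at -1.95 ± 0.42 (SE, adjusted p = 0.0204). Its interaction was -3.29 ± 0.58 (SE, adjusted p = 0.00164). For age in wild type, aged knockout and the interaction these signs are opposite to those of every gene called among the 31.

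Among the acyl-CoA dehydrogenases and electron transfer genes 5 of 7 fell with age in wild type (Acads, Acadvl, Etfdh, Etfb and Acadl), against 20.8% of all genes. Acads, the short-chain dehydrogenase, read 1937, 1953, 2549, 1950.4 and 1769 in WT_Adult, 1242, 1118, 1313, 1286 and 1170.4 in WT_Aged, 1651, 1429, 1306, 986 and 1589.5 in KO_Adult and 1071, 999, 978 and 1062 in KO_Aged. WT_Adult stood above all other arrays, with differences of -0.76 ± 0.14 (SE, adjusted p = 0.00065) for WT_Aged and -0.57 ± 0.14 (SE, adjusted p = 0.00914) for KO_Adult. Between KO_Aged and WT_Aged Acads did not pass, at -0.27 ± 0.15 (SE, adjusted p = 0.165). Acadvl, the very-long-chain dehydrogenase, read 7004, 7556, 6101, 5935 and 5635 in WT_Adult and 4470.5, 3287, 4352, 3339 and 3563 in WT_Aged. In KO_Adult it read 6173, 6687, 3797, 3432 and 4269, and in KO_Aged 5028, 3184, 4036 and 4258. Its age difference in wild type was -0.78 ± 0.18 (SE, adjusted p = 0.00385), and neither knockout comparison passed, at -0.51 in adults and 0.16 in aged mice. Etfdh, which passes electrons from the flavoprotein to ubiquinone, read 3962, 3302, 3109.6, 3362 and 3711 in WT_Adult and 2333, 1651, 2874, 1959 and 2309.6 in WT_Aged. It read 3751, 3192, 2720.2, 2605 and 3128 in KO_Adult and 3570.4, 3738, 3481 and 3849 in KO_Aged, which was higher than WT_Aged on every array. The log2 difference was -0.70 ± 0.15 (SE, adjusted p = 0.0019) with age in wild type and 0.77 ± 0.16 (SE, adjusted p = 0.00146) for aged knockout. The flavoprotein's beta subunit gene Etfb fell by 0.52 on the log2 scale with age in wild type (SE 0.19, adjusted p = 0.0359), and its alpha subunit gene Etfa showed -0.045 ± 0.20 (SE). Acadl, the long-chain dehydrogenase, fell by 0.41 with age in wild type (SE 0.13, adjusted p = 0.0199); this call was lost when its 2 probe sets were averaged. Acadm, the medium-chain dehydrogenase, read 8092, 7342, 7861, 10252 and 12228 in WT_Adult, 8068, 7489.9, 9313, 7196 and 9088 in WT_Aged, 6474, 6942, 9847, 9085 and 9465 in KO_Adult and 6497, 6341, 6055 and 6614 in KO_Aged. It passed in no comparison between groups, and its KO_Aged mean of 6377 ± 242 (SD, n = 4) was the lowest of the 4 groups.

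Hadha had the largest differences of the 31 genes in the 3 pairwise comparisons in which it was called, which were age in wild type, adult knockout and aged knockout. Its product is the alpha subunit of the trifunctional protein and carries the long-chain hydratase and dehydrogenase activities. It read 4728, 4436, 5679, 5676 and 5389.6 in WT_Adult and 1508, 1156, 1565, 1376 and 1369 in WT_Aged. In KO_Adult it read 4614 and 3469 on replicates 1 and 2, without spike-in signal, and 1637, 1498 and 1975 on replicates 3, 4 and 5, with it. KO_Aged, without signal, gave 4492, 3415, 3669.8 and 3455. The 8 arrays with signal, from WT_Aged and KO_Adult, thus lay between 1156 and 1975 and the 11 without between 3415 and 5679. Only KO_Adult had arrays on both sides. The log2 differences were -1.93 ± 0.24 (SE, adjusted p = 4e-05) with age in wild type, -1.17 ± 0.24 (SE, adjusted p = 0.00294) for adult knockout, 1.48 ± 0.25 (SE, adjusted p = 0.000378) for aged knockout and 2.65 ± 0.35 (SE, adjusted p = 0.00011) for the interaction. Between the 3 KO_Adult arrays with signal and the 2 without, a comparison within 1 group, the difference was -1.18 ± 0.21 (SE, adjusted p = 0.00174). Between the 3 KO_Adult arrays with signal and WT_Aged, which differ in both genotype and age, it was 0.29 ± 0.17 (SE, adjusted p = 0.3).

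Hadhb, the beta subunit with the thiolase activity, was also lower on the arrays with signal, over a narrower range. It read 9771, 9863, 9576, 9414 and 9420.5 in WT_Adult, 6304, 5308, 7010.0, 5379.9 and 6097 in WT_Aged, 9993 and 10563 in KO_Adult without signal, 6682, 6434 and 7692 in KO_Adult with signal, and 8573, 9630.5, 8346 and 7943 in KO_Aged. Arrays with signal lay between 5308 and 7692 and those without between 7943 and 10563. Its log2 difference was -0.69 ± 0.13 (SE, adjusted p = 0.000858) with age in wild type, 0.58 ± 0.14 (SE, adjusted p = 0.00433) for aged knockout, and -0.46 ± 0.15 (SE, adjusted p = 0.0345) between KO_Adult arrays with and without signal. Averaging its 2 probe sets ended the age call. Ech1, an isomerase for dienoyl-CoA from unsaturated fatty acids, read 5652, 5918, 5071, 4182 and 3651 in WT_Adult and 2971, 2209, 3161, 3109 and 2979 in WT_Aged. In KO_Adult it read 5654 and 5903 without signal and 3563, 3029 and 3203 with it, and in KO_Aged 4987, 6486, 6294 and 4476. The difference was -0.79 ± 0.18 (SE, adjusted p = 0.00327) with age in wild type, 0.99 ± 0.19 (SE, adjusted p = 0.00101) for aged knockout, and -0.72 ± 0.20 (SE, adjusted p = 0.0165) between KO_Adult arrays with and without signal. Decr1, the dienoyl-CoA reductase of the same side path, read 2975, 3042, 2871, 2733 and 2637 in WT_Adult and 1788, 1499.8, 1913, 1944 and 1766 in WT_Aged. It read 3101 and 2643 in KO_Adult without signal, 1585, 1521 and 1713 with it, and 2201, 2886, 2732 and 1995 in KO_Aged. It fell by 0.71 with age in wild type (SE 0.18, adjusted p = 0.00513) and by 0.54 in adult knockout (SE 0.18, adjusted p = 0.0437), while the aged knockout value of 0.44 ± 0.19 did not pass. Hadha, Hadhb, Ech1 and Decr1 were the 4 of 31 genes, all of later oxidation steps, whose 8 arrays with signal all lay below the 11 without; this held for 3.50% of all genes, and for 0 of 31 the order was the reverse, against 1.69% of all genes.

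**Figure D2:**
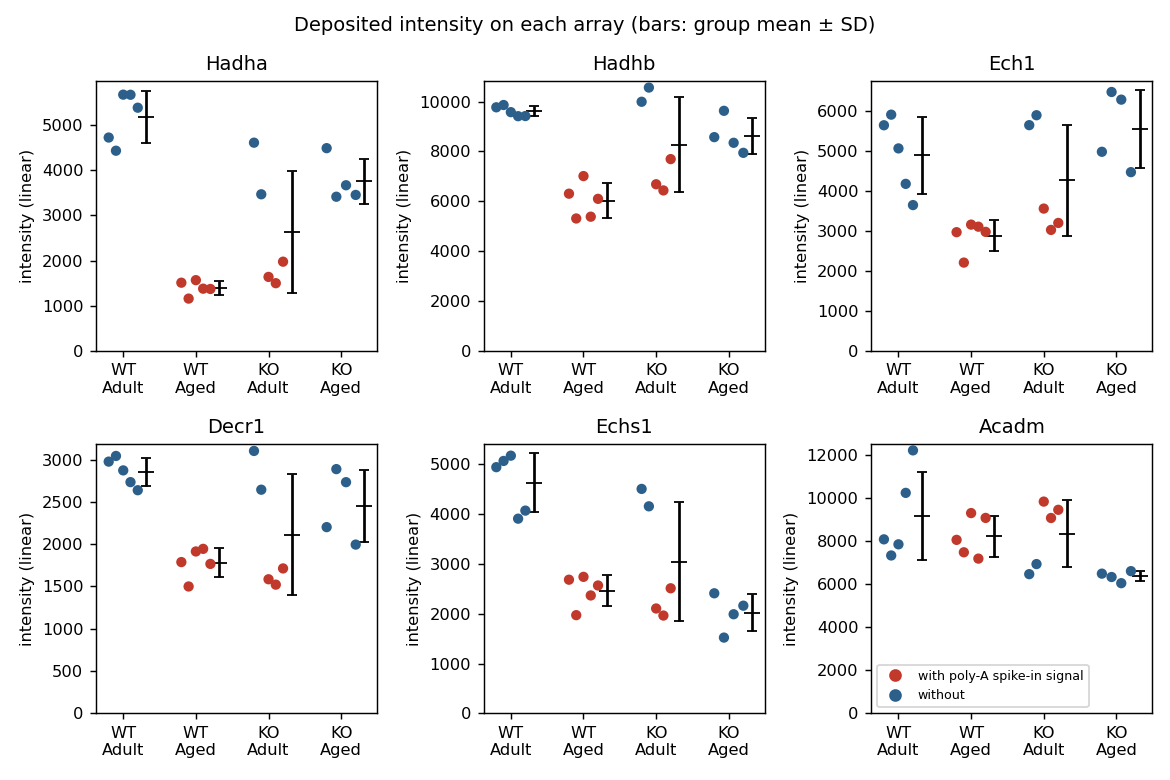
Deposited intensity (linear scale from 0) of Hadha, Hadhb, Ech1, Decr1, Echs1 and Acadm on each array by group, in red with and in blue without poly-A spike-in signal; bars give the group mean and SD. For Hadha, Hadhb, Ech1 and Decr1 all red points lie below all blue ones, whereas the blue KO_Aged points of Echs1 (1522 to 2411) lie with the red ones and those of Acadm have the lowest group mean.

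The other later-step genes differed from this pattern in part. Echs1, the short-chain enoyl-CoA hydratase, read 4943, 5068, 5174, 3909.6 and 4071 in WT_Adult, 2684, 1973, 2742, 2368 and 2568 in WT_Aged, 4507 and 4158 in KO_Adult without signal, 2106, 1965 and 2512 with it, and 2411, 1522, 1991 and 2163 in KO_Aged. Its KO_Aged arrays, which carry no spike-in signal, lay below every other array without signal and overlapped the arrays with it. The log2 differences were -0.94 ± 0.21 (SE, adjusted p = 0.00256) with age in wild type, -0.76 ± 0.21 (SE, adjusted p = 0.0186) for adult knockout and -0.31 ± 0.22 (SE, adjusted p = 0.309) for aged knockout. Acaa2, the mitochondrial thiolase for shorter chains, read 4760.3, 4555, 4327, 3555 and 3302 in WT_Adult and 2730.3, 1700.2, 2498, 2079 and 2151 in WT_Aged. It read 4397, 5181, 2503, 2414 and 2849 in KO_Adult and 3420.4, 5575, 4092 and 2573 in KO_Aged, and gave -0.91 ± 0.22 (SE, adjusted p = 0.00369) with age in wild type and 0.77 ± 0.23 (SE, adjusted p = 0.0167) for aged knockout. Without the 3'-biased arrays the latter was 0.47 and did not pass (adjusted p = 0.272), and KO_Aged replicate 2, the highest Acaa2 array in its group, is one of them. Eci1, an isomerase that moves double bonds into place for oxidation, read 3198, 3512, 3122, 2977 and 3064 in WT_Adult, above every other array, and 2374, 1565, 2157, 2001 and 2143 in WT_Aged. It read 2451, 2465, 1796, 1550.3 and 1997 in KO_Adult and 2193, 2713, 2685 and 1923 in KO_Aged, with -0.67 ± 0.15 (SE, adjusted p = 0.00294) for age in wild type and -0.69 ± 0.15 (SE, adjusted p = 0.00503) for adult knockout. Hadh, the hydroxyacyl-CoA dehydrogenase for shorter chains, passed only for aged knockout, at 0.64 ± 0.20 (SE, adjusted p = 0.0223), and at 0.55 without the 3'-biased arrays it did not (adjusted p = 0.167). Eci2, a related isomerase, and Acaa1a, the thiolase of peroxisomes, passed in no comparison between groups, and their age differences in wild type were -0.19 ± 0.16 and -0.12 ± 0.26 (SE).

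Of the 6 genes of lipolysis and triglyceride synthesis, 4 fell with age in wild type (Pnpla2, Lipe, Lpin1 and Dgat2), against 20.8% of all genes. Pnpla2, adipose triglyceride lipase, makes the first cut into stored triglyceride; it read 4096, 3178, 4345, 3531 and 4337 in WT_Adult and 1158, 943, 1482, 1295 and 1495 in WT_Aged. It read 4613, 2369.7, 1368, 1886 and 2354 in KO_Adult and 3672, 1510.2, 1795 and 2905 in KO_Aged, a wide spread in both knockout groups. The differences were -1.67 ± 0.28 (SE, adjusted p = 0.000367) with age in wild type, -0.80 ± 0.28 (SE, adjusted p = 0.057) for adult knockout and 0.91 ± 0.30 (SE, adjusted p = 0.0295) for aged knockout. Lipe, hormone-sensitive lipase, which makes the next cut, read 381, 377, 268, 351 and 469 in WT_Adult and 116, 155, 135, 148 and 157 in WT_Aged. It read 257, 164, 92.5, 103 and 201 in KO_Adult and 232, 31.2, 76.3 and 63.8 in KO_Aged; all arrays of the other 3 groups were below WT_Adult. It fell by 1.26 with age in wild type (SE 0.34, adjusted p = 0.00812) and by 1.08 in adult knockout (SE 0.34, adjusted p = 0.0358). Lpin1, a phosphatidate phosphatase on the way to triglyceride that also acts as a coactivator of PPAR targets, read 3489, 2634, 4394, 3371 and 5386 in WT_Adult and 1911, 1536, 2138, 1398 and 1991 in WT_Aged. It read 3799, 1903, 1976, 1961 and 2423 in KO_Adult and 1995, 2798, 3133 and 3063 in KO_Aged, with -1.12 ± 0.22 (SE, adjusted p = 0.00129) for age in wild type and -0.73 ± 0.22 (SE, adjusted p = 0.0306) for adult knockout. Dgat2, which adds the last acyl chain of triglyceride, fell by 0.80 with age in wild type (SE 0.22, adjusted p = 0.0103), while Dgat1, an unrelated enzyme for the same step, gave 0.058 ± 0.23 (SE). Mgll, which cleaves monoacylglycerol, read 1069 to 1406 in WT_Adult and 482 to 887 in KO_Adult without overlap, a difference of -0.68 ± 0.21 (SE, adjusted p = 0.0348), and showed 0.056 ± 0.21 (SE) with age in wild type.

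The 10 genes higher in aged knockout than in aged wild type were Hadha, Hadhb, Ech1, Acaa2, Hadh, Cpt2, Crat, Mlycd, Etfdh and Pnpla2. All but Hadh had fallen with age in wild type, but both comparisons use the same WT_Aged arrays, so each side's values are given above and the overlap is no separate result. With probe sets averaged, 5 of the 10 calls for aged knockout were kept. Of the 10 genes, Hadha, Ech1, Mlycd and Etfdh had 1 probe set each, and the others had several. The 12 genes called for the interaction were Hadha, Hadhb, Ech1, Acaa2, Decr1, Eci1, Cpt2, Crat, Mlycd, Etfdh, Pnpla2 and Lpin1. After Hadha the highest interaction values were 1.71 ± 0.41 (SE, adjusted p = 0.00645) for Pnpla2 and 1.51 ± 0.31 (SE, adjusted p = 0.00226) for Cpt2, and the lowest of the 12 were 0.88 ± 0.22 (SE, adjusted p = 0.0083) for Eci1 and 0.91 ± 0.19 (SE, adjusted p = 0.00261) for Hadhb. The other 10 genes that fell with age in wild type did not pass in aged knockout, and their values there lay on both sides of 0, from -0.90 for Lipe to 0.62 for Lpin1, with Decr1 at 0.44 and Etfb at 0.39. Within the title code stem shared by the aged groups, KO_Aged replicate 4 was above the mean of WT_Aged replicates 4 and 5 for 22 of 31 genes, against 54.7% of all genes, with a median of 0.28 beside 0.07. There Hadha was at 1.43, Pnpla2 at 1.12, Acaa2 at 0.31 and Lipe at -1.47; with 1 knockout array this has no test, and the spike-in split lies across it too.

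**Figure D3:**
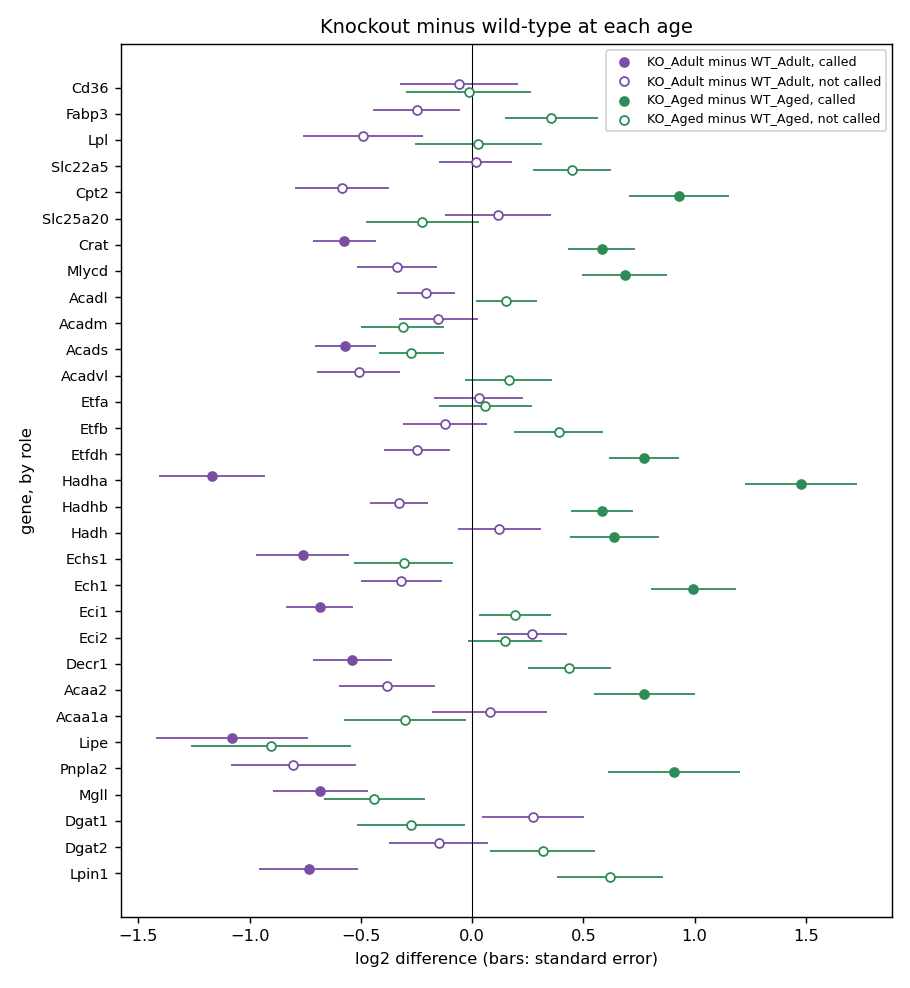
Log2 difference between knockout and wild type with its standard error for each of the 31 genes, in purple for adult mice (KO_Adult minus WT_Adult) and in green for aged mice (KO_Aged minus WT_Aged); filled points passed the adjusted threshold. The purple points lie mostly left of 0 (24 of 31) and the green ones mostly right of it (22 of 31), with Hadha farthest out in both directions.

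Within KO_Adult, where genotype and age are the same, the 3 arrays with spike-in signal had 9 of 31 genes lower and 1 higher than the 2 without, against 12.9% lower and 13.4% higher of all genes tested. The members' median was -0.47 beside -0.13 over all genes, and the number called was 1, 3, 4 and 3 without KO_Adult replicate 1, 2, 3 or 4. Leaving out replicate 1 or 2 leaves 1 array without signal, which the fit assumes to vary like the other groups. The 9 were Hadha, Hadhb, Ech1, Decr1, Echs1, Acaa2, Cpt2, Acadvl and Etfb, and each of them also fell with age in wild type, a comparison that uses none of the same arrays; 533 of all 7436 genes did so in both. Echs1 gave -0.94 ± 0.21 (SE, adjusted p = 0.00586), Decr1 -0.81 ± 0.17 (SE, adjusted p = 0.00424) and Acaa2 -0.82 ± 0.25 (SE, adjusted p = 0.0242). Acadm went the other way, at 0.61 ± 0.21 (SE, adjusted p = 0.0428). Over the 31 genes the difference within KO_Adult and the age difference in wild type had a Pearson r of 0.67, and over all 7436 genes 0.71; the signs matched for 83.9% and 75.9%. By Pearson r the 31 genes' likeness in the 2 comparisons was thus about that of genes at large. By matching signs, and by genes called lower in both (9 of 31, against 533 of 7436), it was higher. This was not tested, and genes are not independent replicates. Between the 3 KO_Adult arrays with signal and WT_Aged, all carrying the signal, 1 of 31 was lower and 0 higher, against 4.75% and 4.59% of all genes, with a median of 0.18 beside 0.04. That gene was Mgll, at -0.95 ± 0.23 (SE, adjusted p = 0.0145); the count was 0 without KO_Adult replicate 3 or 5 and 2 without KO_Aged replicate 1 or 3.

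**Figure D4:**
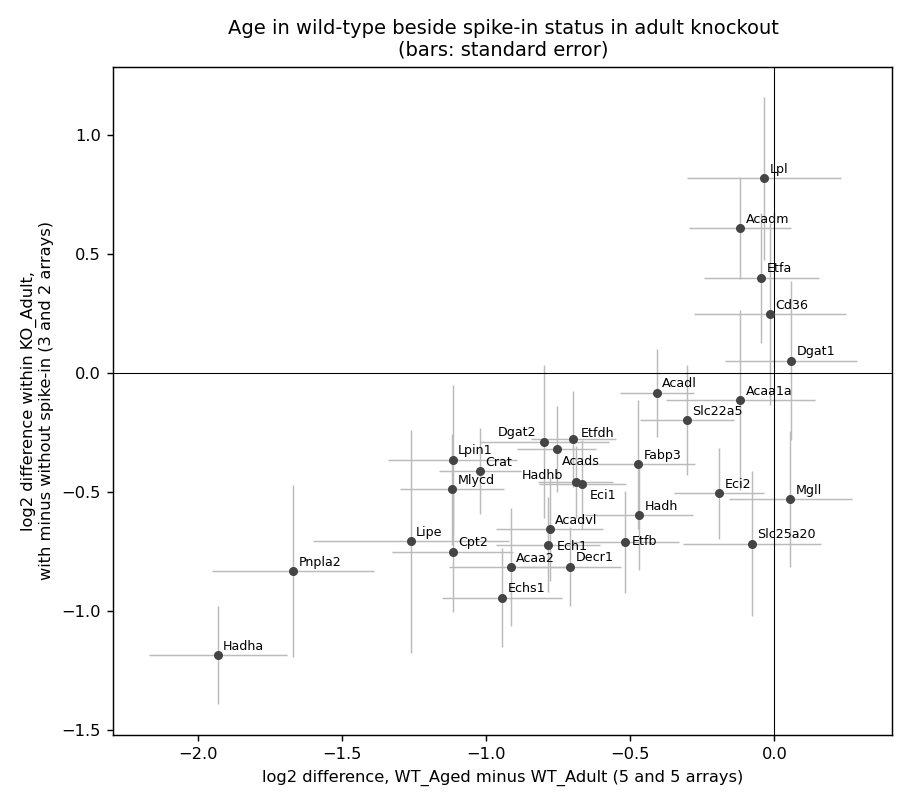
Each point is 1 of the 31 genes, placed by its log2 difference between WT_Aged and WT_Adult (horizontal) and between KO_Adult arrays with and without spike-in signal (vertical), with standard errors. Hadha is lowest on both axes (-1.93 and -1.18), 26 of 31 genes have the same sign on both, and Lpl, Acadm, Etfa and Cd36 lie near 0 for age but above 0 for spike-in status.

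With spike-in status as a term in the model, which can be estimated only through the divided KO_Adult group, the age difference in wild type passed for 0 of 31 genes (4 at an unadjusted p under 0.05), against 0.0941% of all genes (limma). The members' median moved from -0.69 to -0.23. The standard errors grew as well, from a median over all genes of 0.22 to 0.35, so a missed threshold does not show that the genes were unchanged. Hadha kept the farthest value among the 4 genes that followed the split, at -0.75 ± 0.25 (SE, adjusted p = 0.224), against -0.23 ± 0.18 for Hadhb, -0.064 ± 0.24 for Ech1 and 0.10 ± 0.20 for Decr1. For the adult genotype difference the term sets the 2 KO_Adult arrays without signal against WT_Adult; 0 of 31 passed (7 at an unadjusted p under 0.05), against 6.67% of all genes, with a median of -0.12. The aged genotype difference then passed for 1 of 31, against 5.49% of all genes, and the interaction for 0 of 31 (4 at an unadjusted p under 0.05), against 0.0269%. The 1 was Echs1, with a log2 difference of -1.25 ± 0.26 (SE, adjusted p = 0.0131). The sign of this Echs1 value is the same without the term, at -0.31 ± 0.22, and its adjusted p ranged from 0.0131 to 0.881 over all settings tried.

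Between aged knockout and the 2 adult knockout arrays without signal, which is the age difference in knockout under this term, 4 of 31 genes were lower and 0 higher, against 9.98% of all genes called. They were Echs1 at -1.06 ± 0.20, Acads at -0.65 ± 0.17, Eci2 at -0.61 ± 0.18 and Lipe at -1.51 ± 0.45 (log2 difference and SE). Adjusted p-values were 0.00689 for Echs1, 0.0288 for Acads, 0.0406 for Eci2 and 0.0406 for Lipe, and over all settings they ranged up to 0.665, 0.255, 0.473 and 0.483. Leaving out the 3'-biased arrays as well, Echs1 (-0.83) and Eci2 (-0.70) still passed, and Acads (-0.62, adjusted p = 0.0553) and Lipe (-1.03, adjusted p = 0.12) did not. In that fit Slc25a20 was also lower (-0.94, adjusted p = 0.0494) and Lpl was higher (1.23, adjusted p = 0.0434). For Hadha the same comparison gave 0.0032 ± 0.20 (SE), for Hadhb -0.055 ± 0.14, for Ech1 0.093 ± 0.19 and for Decr1 -0.22 ± 0.16.

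**Figure D5:**
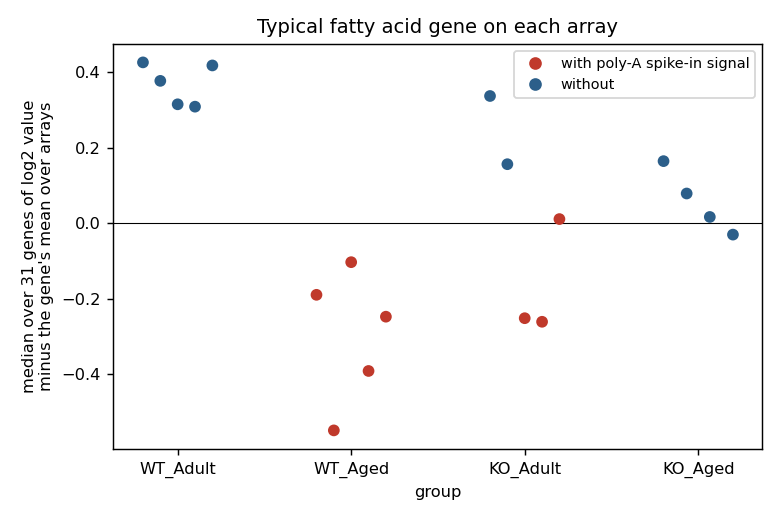
For each array, by group, the median over the 31 genes of the log2 value minus the gene's mean over all arrays, in red with and in blue without spike-in signal. WT_Adult arrays lie at 0.31 to 0.43, KO_Adult at 0.16 to 0.34 without and -0.26 to 0.01 with signal, KO_Aged at -0.03 to 0.16 and WT_Aged lowest, at -0.55 to -0.10.

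Of 20 listed PPAR, ERR and PGC-1 regulators 13 were tested, and they were called about as often as genes at large. With age in wild type 2 rose and 3 fell (15.4% and 23.1%, against 18.1% and 20.8% of all genes), and in adult knockout 1 rose and 2 fell (7.69% and 15.4%, against 7.32% and 9.37%). Rxra, a partner receptor of the PPARs, fell in both (-0.67, adjusted p = 0.0189, and -0.96, adjusted p = 0.00495), and its relative Rxrg fell in adult knockout (-1.32, adjusted p = 0.000827). Sirt1, a deacetylase of PGC-1, rose with age in wild type (2.37, adjusted p = 0.00375), and between KO_Adult arrays with and without spike-in signal the difference was larger, at 2.96 (adjusted p = 0.000755). For Rxra and Rxrg that difference was 0.08 and -0.48 and did not pass. Among 8 tested PPAR targets outside the 34 genes, 4 rose and 1 fell with age in wild type: Hilpda, an inhibitor of Pnpla2's lipase, and Vldlr, the receptor for very-low-density lipoprotein, rose (1.26 and 0.93), and Plin5, a droplet coat protein of oxidative tissues, fell (-1.83). By spike-in status within KO_Adult, Plin5 (-1.57) and Vldlr (0.81) passed in the same direction, and Hilpda (0.36) did not pass.

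Among neighbouring pathways, the citric acid cycle and branched-chain breakdown had larger shares of genes lower with age in wild type than the 20.8% of all genes. Of 18 tested citric acid cycle genes 11 fell (61.1%) and 0 rose with age in wild type (median -0.39), led by Ogdh, Sdhc and Dlst at -1.27, -1.64 and -0.75. By spike-in status within KO_Adult the same 3 were at -0.53, -1.08 and -0.01, of which Ogdh and Sdhc passed. Of the same 18, 6 fell in adult knockout (33.3%, against 9.37%), and 3 rose (16.7%, against 16.9%) and 1 fell in aged knockout. Branched-chain and odd-chain acyl-CoA breakdown, which also feeds Etfdh, had 9 of 19 genes lower (47.4%) and 1 higher with age in wild type, with Mccc2, Pccb and Ivd at -1.81, -1.39 and -1.36. By status within KO_Adult these 3 were at -1.48, -1.22 and -1.22 and all passed. Peroxisomal oxidation had 3 of 10 lower and 1 higher with age in wild type, close to the shares of all genes, and 5 higher and 2 lower in aged knockout, against 16.9% and 12.5%. Fatty acid synthesis had 2 of 13 lower (15.4%) and 0 higher with age, no more than genes at large, of which Acacb, the acetyl-CoA carboxylase that makes malonyl-CoA at the mitochondrion, was at -1.06. Among 17 other uptake, activation and droplet genes 2 rose and 5 fell with age in wild type (11.8% and 29.4%), the lowest p belonging to Got2 (-0.92), Slc27a1 (-1.46) and Dbi (0.59). Of these, Slc27a1 also passed by status within KO_Adult (-0.98), and Got2 (-0.16) and Dbi (0.32) did not.

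Markers of other cell types and of fibre type moved in the same comparisons, and their part in the results was not tested. The shares of all genes to set beside these counts are 18.1% higher and 20.8% lower with age in wild type. They are 9.37% lower in adult knockout, and 16.9% higher and 12.5% lower in aged knockout. All 6 tested neutrophil markers rose with age in wild type, and the summed intensity of the 9 measured ran from 847 to 2295 in WT_Adult, from 5202 to 16158 in WT_Aged and, among knockouts, 722 to 4935 in KO_Adult and 7825 to 14073 in KO_Aged. Of 15 endothelial markers 12 fell in adult knockout, 7 fell and 1 rose with age in wild type, and 8 fell and 1 rose in aged knockout. Their sums were 19516 to 24210.4 in WT_Adult, 12298 to 14578 in WT_Aged and, in knockouts, 7662 to 11297 (adult) and 8138 to 10371 (aged). Slow fibre markers, 10 tested, were higher for 8 in aged knockout than in aged wild type, with sums of 9635 to 17985 in WT_Adult, 6066 to 11621 in WT_Aged and, in knockouts, 14997 to 25209.8 (adult) and 26391 to 44306 (aged). Within KO_Adult that sum was 14997 to 15262 with spike-in signal and 23576 to 25209.8 without. Fast fibre markers had 2 of 13 lower with age in wild type, with sums of 273766 to 490813 in WT_Adult and 251999 to 325997 in WT_Aged. Macrophage markers had 5 of 12 higher, with sums of 4166 to 6812 in WT_Adult and 3900.3 to 9989 in WT_Aged. Of 9 fibroblast markers 3 fell with age in wild type and 3 rose and 1 fell in aged knockout. Adipocyte markers were mostly dim: of 8 measured, only Fabp4 (4493 to 13340) and Adipoq (24 to 703) passed the filter, Lep read 1.05 to 59.7 and Retn 3.49 to 68.2, and Fabp4 is also made by endothelium. Slow fibre sums were not the only ones set apart by spike-in signal within KO_Adult. Lower with signal were endothelial (7662 to 8618 against 9507 to 11297), macrophage (4124 to 5060 against 6114 to 8500) and fibroblast sums (15746 to 31630 against 32780 to 35373). Adipocyte sums were higher with signal (7634 to 10554 against 4816 to 6537), though Adipoq was lower (-3.04) and Fabp4 higher (0.89). Neutrophil and fast fibre sums overlapped.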

How the data were processed

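RNA from 19 mouse tibialis anterior muscles was measured on 1-colour Affymetrix arrays, 1 per sample. Linear intensity, 1 value per probe set and array, is what the authors deposited, and MAS5 is the tool that the submitters' processing notes name (no version is given). Each array's mean, trimmed by 2% per side, was about 500 (499.9 on the first WT_Adult array), so arrays were scaled before deposit. Of 22690 probe sets, 20380 had 1 gene symbol in the platform annotation, 691 several and 1619 none; the 64 control probe sets were left out of the fit.

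Values were put on log2(value + 4.76), the pseudocount being percentile 10 of all values, and quantile normalized. Each gene was represented by its brightest probe set, and the 60% of genes with the highest means were tested with limma 3.58.1 (lmFit, eBayes) in R 4.3.3, all 19 arrays in 1 model with a mean per group; p-values were adjusted over all 7436 genes. A fold understates the change of dim genes. Comparisons by spike-in status used a model with KO_Adult divided. On simulated data for KO_Adult minus WT_Adult, 63% of genes changed by a log2 of 1 and 95% of those changed by 2 were recovered, with 6 false calls among 7436 genes. How the spike-in split within KO_Adult bears on these rates was not tested.

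The 34 genes and all other lists were chosen with earlier results of these data known. Every member is named; single-array values and full statistics are given for up to 3 members per role with the smallest p, and for those called for the interaction, and from other lists the 3 with the smallest p. Motifs were searched in RefSeq promoters (GRCm38.p6). Alternatives covered normalization, pseudocount, filter, probe set, variance model, array weights, groups in the fit, a spike-in term, the 3'-biased arrays and each array left out. Figures were made with Python 3.11.15 and matplotlib 3.10.9.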

Additional observations from a re-analysis of the deposited data

Results flagged for a closer look

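Some arrays stood apart from the rest of their group by more than Dixon's limit, in 5 of 128 sets of a gene and a group; chance alone gives about 1 in 20. Fabp3 was low on WT_Adult replicate 3, at 7140.2 against 10128 to 10887 on the other 4 arrays, and Acads was high on the same array, at 2549 against 1769 to 1953. Ech1 was low on WT_Aged replicate 2, at 2209 against 2971 to 3161. On KO_Aged replicate 1, Acaa1a read 91.0 against 221 to 269 and Dgat2 485 against 569 to 604.

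The difference between knockout and wild type itself differed between the age groups for 12 genes, by the interaction term in limma at an adjusted p under 0.05. Of all genes tested, 14.3% were above 0 and 10.8% below. The spike-in split lies across this term in part, with every WT_Aged array on the side with signal. The interaction values on the log2 scale were 2.65 for Hadha, 1.71 for Pnpla2, 1.51 for Cpt2, 1.35 for Lpin1 and 1.31 for Ech1. They were 1.16 for Crat, 1.16 for Acaa2, 1.02 for Etfdh, 1.02 for Mlycd, 0.97 for Decr1, 0.91 for Hadhb and 0.88 for Eci1. With the spike-in term 0 of the 31 genes passed, against 0.0269% of all genes, and 4 had an unadjusted p under 0.05.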

How the results depend on the processing

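Counts of called genes changed with several settings. They are among the 31 tested, or among 32 without the filter or with averaged probe sets and 29 with the upper 40% of genes. With the spike-in term they were 0 for age in wild type, 0 for adult knockout, 1 for aged knockout, 4 for age in knockout and 0 for the interaction, and leaving out the 3'-biased arrays as well gave 0, 0, 1, 4 (1 of them higher, Lpl) and 0. Median centring gave 2 for adult knockout, 6 for aged knockout, 4 for the interaction and 5 within KO_Adult by status. The shares of all genes called under it were 17.3%, 24.7%, 23% and 22.1% in the same order. Without the filter the counts were 5 for adult knockout, 1 for age in knockout (Acot2) and 4 within KO_Adult. The upper 40% of genes gave 1 for age in knockout (Acads) and 2 for KO_Adult with signal against WT_Aged. Averaged probe sets gave 1 for age in knockout (Acot2). In aged knockout they gave 5 higher and 2 lower (Acot2 and Mgll). For the interaction they gave 12 above 0 and 2 below (Acot2 and Acaa1a). Array weights gave 17 for adult knockout, 3 for age in knockout, 19 for the interaction, 21 within KO_Adult and 5 for KO_Adult with signal against WT_Aged. Array weights raised the calls among genes at large too. The shares of all genes called were then 51.1%, 17.1%, 52.9%, 53.6% and 36.6% in the same order. A fit of only the groups compared gave 3 for adult knockout and 2 for KO_Adult with signal against WT_Aged, and without the 3'-biased arrays the last was 2. Leaving out each array in turn gave 17 to 20 for age in wild type, 4 to 13 for adult knockout, 8 to 12 for aged knockout, 0 to 2 for age in knockout, 12 to 13 for the interaction, 1 to 12 within KO_Adult and 0 to 2 for KO_Adult with signal against WT_Aged. Signs turned for Acadl with age in wild type when probe sets were averaged (0.10). With the spike-in term they turned for Decr1 (0.10) and Etfb (0.19) with age in wild type, for Acaa2 in aged knockout (-0.041) and for the interaction of Acaa2 (-0.15) and Decr1 (-0.33). With the term and without the 3'-biased arrays they turned for Decr1 (0.10) and Etfb (0.19) with age, for Acaa2 (-0.35) and Hadh (-0.049) in aged knockout, and for the interaction of Acaa2 (-0.46), Decr1 (-0.52) and Eci1 (-0.044). The causes were not tested. No paired analysis was possible because the titles carry codes in place of replicate numbers, and only 1 code stem is shared between groups.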
